A study of Monopterus albus with 2 samples.

Results

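Long peaks of H2b monoubiquitinated at lysine 120 (H2bK120ub) that were called in testis and had no counterpart in ovary were examined in the swamp eel *Monopterus albus*, a fish that changes sex naturally from female to male. Each peak marks bases of a scaffold at which DNA pulled down with an antibody to the mark was called as enriched. The peaks described here, called unmatched below, were all testis peaks of at least 1000 bp that shared no base with any ovary peak, on scaffolds with at least 1 peak in each list. There were 2732 of them, out of 42925 testis peaks of that length on these scaffolds and 287444 testis peaks in all. The 40193 long testis peaks that shared at least 1 bp with an ovary peak are called matched. The unmatched peaks were thus chosen by their length in the testis list and by the positions of ovary peaks, so their length and lack of overlap are a description and not a finding.

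The series holds 1 testis sample and 1 ovary sample, both from adult untreated fish, immunoprecipitated with the same rabbit antibody. Whether a sample was 1 gonad or a pool is not given in the sources used here. With 1 sample per tissue there was no replicate error and no test, so each difference describes these 2 lists. Positions and a score are given for each peak, and read counts are not part of the lists, so the depth of neither library is known. A stretch without a peak may thus be one without the mark or one with too few reads to call. The lists name scaffolds, no gene could be placed on them, and the tissue labels could not be checked against marker genes. The 1780 scaffolds with peaks in both lists span 646.7 Mb up to their last peak, with 24.0% of this length inside testis peaks and 22.8% inside ovary peaks.

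H2bK120ub is added by E3 ligases of the Bre1 family (RNF20 and RNF40 in mammals), which act together with an E2 enzyme of the Rad6 family, and removed by deubiquitinases such as the one of the SAGA complex. In yeast and mammals it travels with elongating RNA polymerase II, so that it usually lies over the bodies of transcribed genes rather than at narrow sites. It is also linked to methylation of H3K4 and H3K79 and, in mouse spermatocytes, to meiotic recombination.

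The unmatched long testis peaks were a small part of the testis list. They covered 3.69 Mb, or 2.37% of the bases in testis peaks on these scaffolds, at 4.22 peaks per Mb. Of testis peaks of at least 1000 bp, 6.36% had no overlap with an ovary peak, against 39.9% of testis peaks of every length. For the long peaks the exact Clopper-Pearson 95% interval of this share was 6.14% to 6.60%. Such intervals cover counting error only, and neighboring peaks are not independent. The share fell with length in each class, with 62.6% of testis peaks under 200 bp, 22.4% from 500 to 999 bp, 10.7% from 1000 to 1249 bp, 4.51% from 1500 to 1999 bp and 0.574% at 3000 bp or more. A longer peak has more bases that can meet an ovary peak, so a lower share in longer classes follows in part from the way it is counted. The share depends on which ovary peaks count, and it was 14.4% when ovary peaks under 300 bp were left out and 42.6% when only the upper 50% of each list by score was used.

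Ovary peaks gave nearly the same shares in the other direction. Of 38382 ovary peaks of at least 1000 bp, 2486 shared no base with a testis peak, which was 6.48%, against 38.8% of ovary peaks of every length. From 1000 to 1249 bp the share was 10.7% in testis and 10.5% in ovary, and from 1500 to 1999 bp it was 4.51% in both. The number of unmatched long testis peaks was thus 1 side of a nearly even pair, and their count alone did not set testis apart from ovary. The paper reports far less H2bK120ub in ovary than in testis by mass spectrometry and Western blot. By immunofluorescence it reports no signal in ovary. Peak lists give positions and not amounts of the mark, so similar counts do not mean similar amounts. How far ovary peaks reflect the mark was not tested.

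**Figure D1:**
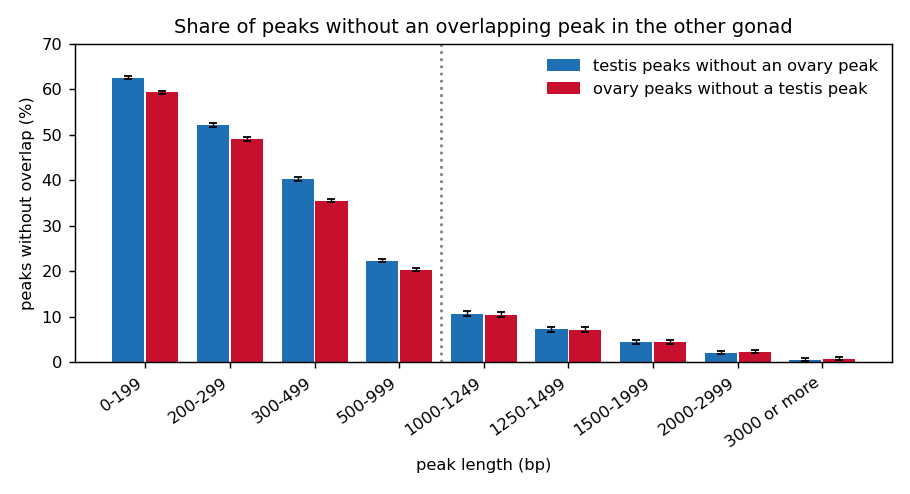
Share of peaks (%, vertical axis) that overlapped no peak of the other gonad, by peak length (bp, horizontal axis), for testis (blue) and ovary (red), on scaffolds with peaks in both lists. Black bars are exact 95% binomial intervals, the dotted line marks 1000 bp, and the share declines from 62.6% of testis peaks under 200 bp to 0.574% of those of at least 3000 bp, with ovary close to testis in each class of long peaks.

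Unmatched long testis peaks were mostly near the lower limit of length. Their median length was 1229 bp, the middle 50% ran from 1088 to 1475 bp, and 2097 of them (76.8%) were shorter than 1500 bp. Matched long testis peaks had a median of 1492 bp, and 50.5% of them were shorter than 1500 bp. At least 2000 bp was reached by 181 unmatched peaks and at least 3000 bp by 15. On either side of the 1000 bp limit, 406 of 3154 testis peaks from 1000 to 1049 bp (12.9%) and 411 of 3434 from 950 to 999 bp (12.0%) had no ovary overlap. The median distance from these to the nearest ovary peak was 530.5 bp just inside the limit and 556 bp just outside. In share and distance the limit thus cut through a gradual change. Their scores differed more, with a median at percentile 47.2 of the testis list just inside and 36.8 just outside.

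The 10 longest lay on 10 different scaffolds and measured from 3316 to 4309 bp. The longest was scaffold488.1:194119-198427, which had an ovary peak 11 bp away and was therefore unmatched by a narrow margin. Next came scaffold334.1:309702-313822, of 4121 bp, with an ovary peak at 334 bp, and scaffold33.1:829014-833015, of 4002 bp, with one at 624 bp. The peak scaffold193.1:337015-340741, of 3727 bp, stood much farther from ovary peaks, at 9113 bp. In the 5 kb on each side of it, testis peaks covered 56.9% and ovary peaks 0.0%. The peak scaffold20.1:2658453-2661940, of 3488 bp, had a similar testis cover in its flanks, 56.9%, with 6.34% in ovary. The peaks on scaffold193.1 and scaffold20.1 had the widest excess of testis over ovary cover among the 10. Ovary cover was above testis cover around those on scaffold334.1 (30.7% against 18.4%) and scaffold232.1 (18.5% against 18.3%). Around the rest of the 10, testis cover was higher.

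The score of a peak was not used to choose the unmatched peaks, and it hardly differed between them and matched peaks. What the score measures is not stated, so it was read only as a rank within the testis list. Unmatched long testis peaks had a median rank at percentile 44.6 of that list, and matched ones of the same lengths were at 45.0. When all long testis peaks were divided into 4 equal parts by score, unmatched peaks made up 6.77% of the lowest part, 6.11% and 6.12% of the middle parts and 6.45% of the highest. The top 1% of testis scores held 18 unmatched peaks, or 7.79% of the 231 long testis peaks there. The highest score of an unmatched peak, 11.9, belonged to scaffold390.1:23469-24542, whose nearest ovary peak was 3470 bp away, and the lowest, 0.638, to scaffold193.1:632745-633876. The unmatched peaks were therefore not concentrated among the testis peaks of low score.

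Most unmatched long testis peaks had an ovary peak close by. These scaffolds held 293354 ovary peaks, and the distance to be expected from their number was not worked out. The median distance to the nearest one was 560 bp, the middle 50% ran from 289 to 1224 bp, and 1880 of the 2732 (68.8%) had one within 1 kb. There were 4 that touched an ovary peak without sharing a base, and 714 had ovary peaks within 1 kb on both sides. At the other end, 104 unmatched peaks had no ovary peak within 5000 bp on either side, 23 had none within 10000 bp and 1 had none within 20000 bp. That last one was scaffold47.1:2044008-2045089, 1082 bp long and 24057 bp from the nearest ovary peak. It was the last peak of either list on its scaffold, so an ovary peak could be met only before it. Its score was at percentile 6.37 of the testis list, and testis peaks covered 12.0% of its 5 kb flanks. Long ovary peaks without testis overlap lay closer to the other list, with a median distance of 516 bp to the nearest testis peak, and 2462 of 2486 had one within 5000 bp.

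Matched peaks show how complete an overlap usually was. Of all long testis peaks, 8684 were covered by ovary peaks to at least 90%, 19717 from 50% to under 90%, 10435 from 10% to under 50%, and only 1357 (3.16%) to more than 0% but under 10%. The unmatched group, at 6.36%, was thus larger than the group with a small overlap. Among matched peaks the median covered share was 69.1%, and 66.5% once lengths were weighted to those of the unmatched peaks.

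The flanks of unmatched peaks had less ovary cover than those of matched peaks, over much longer distances than the peaks themselves. Unmatched peaks were chosen by their lack of ovary peaks, so regions with few ovary peaks hold more of them by construction. The lower ovary cover in their flanks is therefore a description. In the 5 kb on each side, testis peaks covered 29.4% on average and ovary peaks 21.4% around unmatched peaks. Around matched peaks, weighted to the same lengths, testis peaks covered 33.6% and ovary peaks 36.1%. Over the whole span of these scaffolds the shares were 24.0% and 22.8%. Ovary cover around unmatched peaks was thus close to that of the span, and ovary cover around matched peaks was above it. Testis cover was above that of the span around both groups, so the span is not a like reference for flanks of long testis peaks. Compared with matched peaks, the ovary share was 14.6 percentage points lower around unmatched peaks, and the testis share 4.22 points lower. The testis difference was smaller with other settings, 1.49 points for peaks of at least 2000 bp and 2.65 points with the upper 50% of each list by score. The spread among peaks was wide, since the middle 50% of unmatched peaks had an ovary share of 7.83% to 33.5%, against 27.5% to 45.7% for matched ones. Of unmatched peaks, 70.1% had more testis than ovary cover in these flanks, against 40.7% of matched peaks. Peak calling lowers testis cover close to a testis peak, so testis and ovary cover are not alike there. With the first 500 bp left out, testis and ovary peaks covered 31.6% and 22.7% around unmatched peaks. Around matched peaks they covered 36.2% and 36.1%. No ovary peak at all was found in the flanks of 104 unmatched peaks (3.81%), against 0.278% of matched peaks by the same weights. Around long ovary peaks without testis overlap, testis peaks covered 28.4% of these flanks and ovary peaks 32.4%. Around long ovary peaks with testis overlap, weighted to the same lengths, they covered 37.0% and 34.9%. Less cover by the other list was thus found on the ovary side as well, with a smaller difference.

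The difference shrank with distance but remained at 20 kb. From 500 to 1000 bp off the peak edge, ovary peaks covered 21.0% around unmatched and 38.5% around matched peaks. In the outermost step of the profile, 19500 to 20000 bp away, they still covered 24.0% and 34.0%, while testis peaks covered 29.9% and 34.5%. In the first 500 bp, testis peaks covered 9.65% and 11.4%, a low value that follows from peak calling, since 2 testis peaks are never nearer than 261 bp. The ovary share in that step was 9.57% around unmatched and 35.7% around matched peaks. The choice of the peaks itself widens this difference, because an ovary peak that overlaps a matched peak can reach past its edge. A long ovary peak can reach beyond the first 500 bp, so further steps may be affected too. Wide regions with few ovary peaks hold more unmatched peaks by construction, so the difference at 20 kb is not independent of the choice either.

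**Figure D2:**
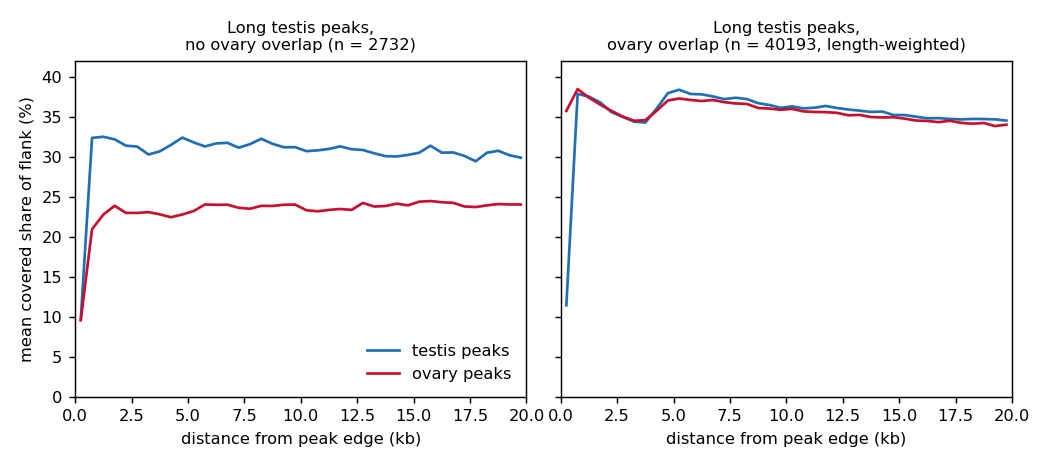
Mean share of bases covered by testis peaks (blue) and ovary peaks (red), in steps of 500 bp, against the distance from the edge of long testis peaks (kb, both sides averaged), for unmatched peaks (left, n = 2732) and for matched peaks weighted to the same lengths (right, n = 40193). On the left the testis line stays above the ovary line, with 29.9% against 24.0% in the outermost step, and on the right the lines run together beyond the first step.

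The flanks of unmatched peaks also differed in which testis peaks they held. In the 5 kb on each side there were on average 5.80 other testis peaks around an unmatched peak and 6.04 around a matched one. Of these neighbors, 52.0% overlapped an ovary peak around unmatched peaks, against 74.4% around matched peaks. Testis peaks were thus about as frequent beside both groups, but those beside unmatched peaks more often lacked ovary overlap as well. Of testis peaks of every length on these scaffolds, 39.9% lacked ovary overlap. Neighbors of unmatched peaks lacked it somewhat more often than that. Neighbors of matched peaks lacked it less often, by a wider margin. The 39.9% is not limited to neighbors of long peaks, so it does not show which group accounts for the difference. An ovary peak that overlaps a matched peak can also reach a neighbor of that peak. A region with few ovary peaks leaves both a long peak and its neighbors without overlap by construction. In both groups the classes from 1500 bp upward had less ovary cover in their flanks the longer the peaks were. It was 21.8% for unmatched peaks of 1000 to 1249 bp and also for those of the next class, up to 1499 bp, 20.3% for those of 1500 to 1999 bp, 19.8% for those of 2000 to 2999 bp and 16.4% for the 15 of at least 3000 bp. Matched peaks of these classes had 36.3%, 36.4%, 35.8%, 34.0% and 29.7%. In the classes from 1500 bp upward, testis cover around matched peaks fell as well, with 33.3%, 30.9% and 26.2%. Around unmatched peaks of these classes testis cover did not fall steadily, with 30.2%, 28.9% and 31.3%.

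Within 25 kb on each side, unmatched peaks fell into surroundings of very different kinds. The share of these flanks that ovary peaks covered was spread almost evenly from 0% to 40% among unmatched peaks, whereas among matched peaks it was concentrated above 30%. Ovary cover under 10% was found around 612 unmatched peaks (22.4%) and 1021 matched peaks (2.54%). Put the other way round, 37.5% of the 1633 long testis peaks with so little ovary cover around them were unmatched, against 2.33% of the 15484 with ovary cover of at least 40%. Fewer ovary peaks in a region leave more testis peaks unmatched by construction, so this gradient is a description. A smaller gradient of the same direction was found for testis cover. Of the 585 long testis peaks with testis cover under 10% around them, 119 (20.3%) were unmatched, against 4.22% of those with at least 40%.

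**Figure D3:**
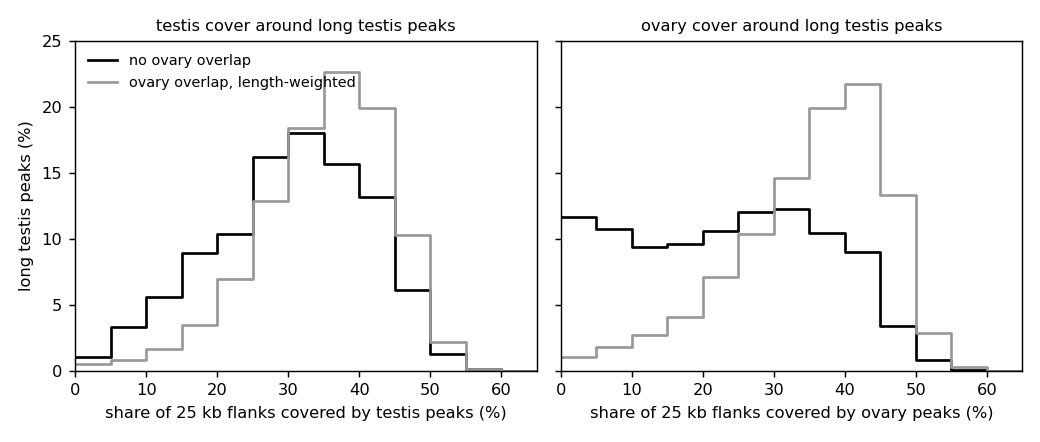
Long testis peaks (%, vertical axis) by the share of the 25 kb on each side that was covered by testis peaks (left) and by ovary peaks (right), in steps of 5 percentage points, for unmatched peaks (black) and matched peaks weighted to the same lengths (grey). In the right panel 22.4% of unmatched peaks lie under 10% ovary cover.

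A part of the unmatched peaks lay where testis peaks were not sparse and ovary cover was low. Ovary cover under 10% together with testis cover of at least 20% in the 25 kb on each side was met by 300 unmatched peaks, or 11.0% of them. The same held for 353 matched peaks, or 0.878%, and for 1.52% of all long testis peaks. The mirrored surroundings, with testis under 10% and ovary at least 20%, were met by 59 of the 2486 long ovary peaks without testis overlap (2.37%) and by 0.3% of all long ovary peaks. So although both lists had nearly equal shares of unmatched long peaks, those of testis lay more often in stretches poor in the other list. The same direction held for matched peaks alone, with 353 of 40193 in testis, against 56 of the 35896 long ovary peaks with testis overlap. It was thus not particular to unmatched ones. This difference between the lists has no replicate behind it, and the depth of the libraries was not known.

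These 300 peaks, with their surroundings joined where they met, formed 119 blocks on 85 scaffolds, which measured 8.13 Mb in all, or 1.26% of the span. Testis peaks covered 30.2% of the blocks and ovary peaks 5.99%, which their choice fixes in part. The longest block, scaffold17.1:3687749-3912957, ran over 225209 bp with 13 of the unmatched peaks, 32.8% testis cover and 3.13% ovary cover. A second block with 13 of them was scaffold15.1:1172971-1333593, with 42.8% testis and 6.24% ovary cover. The blocks also touched 75 further unmatched peaks, and 2357 touched no block. These 2357 had 30.2% testis and 26.1% ovary cover in their 25 kb flanks, against 35.1% and 35.2% for matched peaks. Without the blocks, ovary cover was thus still lower than around matched peaks, though above the 22.8% of the whole span. Leaving out blocks chosen for low ovary cover raises it by construction. No matched peak was left out in the same way.

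Unmatched long testis peaks followed each other along the scaffolds more often than their share among long peaks. Of 2681 unmatched peaks with a further long testis peak on their scaffold, the next was unmatched too for 523, or 19.5%. After a matched peak, the next long testis peak was unmatched in 5.49% of cases. Another unmatched peak within 10 kb was found for 688 unmatched peaks (25.2%), against 9.36% of matched peaks weighted to the same lengths. The median distance to the nearest other unmatched peak was 38382 bp for unmatched and 80188 bp for matched peaks. Among long ovary peaks the next peak lacked testis overlap in 13.6% of cases after one without and 6.03% after one with testis overlap, so there was clustering in ovary as well, with smaller values. Long testis peaks that lie in the same stretch free of ovary peaks are all unmatched by rule. Such a stretch was shared with another unmatched peak by 272 unmatched peaks. Regions with few ovary peaks also place unmatched peaks near each other by construction, so the clustering is a description. How much of it goes beyond the choice was not tested.

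Most unmatched peaks stood alone, and a minority formed long runs. Unmatched peaks with no other unmatched peak next to them in the order of long testis peaks numbered 1856, those at the ends of scaffolds included. There were 253 pairs and 100 runs of at least 3, which held 370 unmatched peaks (13.5%). Runs of at least 5 numbered 15, with 99 peaks, and the longest had 11. In ovary, 48 runs of at least 3 held 166 long peaks (6.68%), 4 runs reached 5 and the longest had 9.

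The longest run, of 11 unmatched peaks in a row, was scaffold54.1:1640610-1727706, over 87097 bp. It held 46 testis peaks, which covered 32.3% of it, and 6 ovary peaks of 59 to 207 bp, which covered 0.767%. Its 11 long testis peaks measured 1016 to 1969 bp and scored 0.746 to 1.48. Outside the run, testis cover was 23.6% in the 20 kb before and 10.1% in the 20 kb after, while ovary cover was 2.36% and 0.7%. The ovary-poor region was therefore wider than the run.

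Runs of 9 lay on scaffold164.1, scaffold17.1 and scaffold169.1. The run scaffold164.1:828946-891599 held 48 testis peaks over 48.0% of its 62654 bp, while 5 ovary peaks covered 0.865%. In the 20 kb before this run, testis cover was 36.2% and ovary cover 8.94%, and after it, up to the last peak of the scaffold, they were 45.7% and 1.76%. The run scaffold17.1:3799133-3872633 held 57 testis peaks over 41.7% of its 73501 bp and 6 ovary peaks over 1.29%. The run scaffold169.1:224759-635534 was of another kind, since it stretched over 410776 bp with 8.37% testis and 1.63% ovary cover, so that both lists were sparse there. Of the 5 runs of at least 8, the most compact was scaffold15.1:1226142-1252181, where 8 unmatched peaks followed each other within 26040 bp and testis peaks covered 52.3%, against 3.89% in ovary. Long runs thus included dense testis stretches as well as a thinly covered one.

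**Figure D4:**
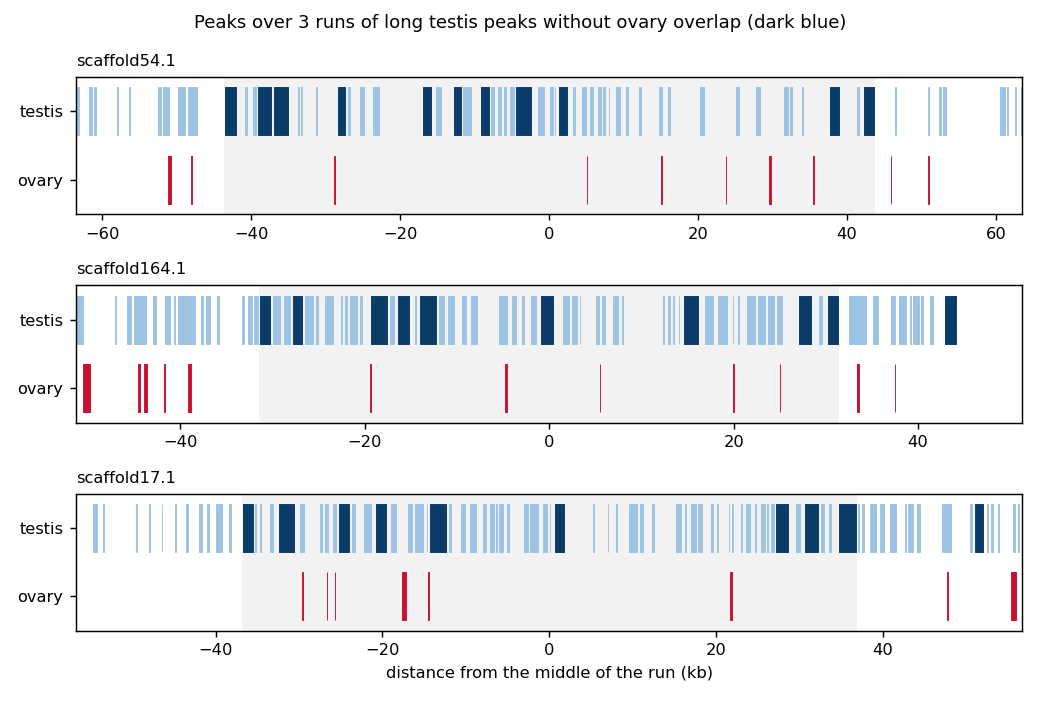
Testis peaks (upper row, light blue, with unmatched long peaks in dark blue) and ovary peaks (lower row, red) over the runs of 11, 9 and 9 unmatched peaks on scaffold54.1, scaffold164.1 and scaffold17.1, against the distance from the middle of the run (kb). Grey marks the run, 20 kb are shown on each side as far as peaks reach, outlines widen the shortest peaks slightly, and ovary peaks cover 0.767%, 0.865% and 1.29% of the runs.

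Stretches wholly free of ovary peaks gave a finer view. The 2732 unmatched peaks lay in 2582 such stretches, of which 2460 held 1 unmatched peak, 103 held 2 and 19 held at least 3. Their median length was 3844 bp, and testis peaks covered 47.5% of a stretch in the median, since each holds a peak of at least 1000 bp by choice. Gaps of at least 1000 bp between ovary peaks numbered 116889, with a median length of 2069 bp, and 2.20% of them held an unmatched peak. Few of these gaps thus held one, but many were not much longer than such a peak. The share to be expected from the lengths of gaps and peaks was not worked out.

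The stretch with most unmatched peaks was scaffold54.1:1655351-1689202, inside the run of 11, where 33852 bp without an ovary peak held 6 unmatched peaks among 20 testis peaks. Next was scaffold193.1:327902-349979, where 5 unmatched peaks, with the 3727 bp peak among them, lay among 16 testis peaks. The stretch scaffold82.1:1646803-1677853 held 4 among 23 testis peaks, which covered 42.9% of its 31051 bp.

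Unmatched peaks were found on 391 of the 650 scaffolds that had a long testis peak. The largest numbers came from long scaffolds, with 57 on scaffold18.1, 39 on scaffold31.1 and 37 on scaffold4.1. These made up 6.79%, 8.97% and 7.17% of the long testis peaks there, against 6.36% on all scaffolds. The exact 95% interval of scaffold31.1 was 6.45% to 12.1%. It treats neighboring peaks as independent, and the scaffold was named for its number of unmatched peaks. In the other direction, only 4 of the 701 long ovary peaks on scaffold18.1 (0.571%) lacked testis overlap, and 13 of the 127 scaffolds with at least 100 long ovary peaks had a share under 1%. Testis peaks covered 31.7% of this scaffold and ovary peaks 26.0%. On scaffold31.1 and scaffold4.1, 6.32% and 8.54% of long ovary peaks lacked testis overlap.

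Shares of unmatched peaks were compared on 376 scaffolds with at least 20 long testis peaks. The median share was 5.68%, the middle 50% ran from 2.94% to 8.52%, and 37 scaffolds had no unmatched peak. The exact 95% interval lay wholly above 6.36% on 32 scaffolds and wholly below it on 24. These intervals treat neighboring peaks as independent, which they are not, and no allowance was made for looking at 376 scaffolds. Both counts are therefore a description of these lists. The highest shares were 17 of 52 long testis peaks on scaffold163.1 (32.7%, interval 20.3% to 47.1%), 12 of 40 on scaffold169.1 (interval 16.6% to 46.5%) and 6 of 24 on scaffold284.1 (interval 9.77% to 46.7%). Scaffold163.1 was covered to 18.3% by testis and 7.43% by ovary peaks, and only 9 ovary peaks of at least 1000 bp were called on it. On scaffold193.1, with 20 of 82 (24.4%), testis cover was 32.4% and ovary cover 26.5%, and 11 of the 20 lay in the block scaffold193.1:242660-380664, with 42.5% testis and 6.62% ovary cover.

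Across these 376 scaffolds, the share of unmatched peaks went with lower ovary cover relative to testis cover (Spearman rho -0.45). It was related less to ovary cover (rho -0.34) and to testis cover (rho -0.16) taken alone. The scaffolds share the same 2 libraries, and fewer ovary peaks leave more testis peaks unmatched by construction, so these values are a description. The 17 scaffolds with shares over 15% had a median testis cover of 26.3% and a median ovary cover of 19.7%, against 26.0% and 25.2% on the other scaffolds. Of the long ovary peaks on those 17 scaffolds, 11.3% lacked testis overlap, against 6.46% on the others, but scaffold109.1 and scaffold185.1 together held 48 of these 80 peaks. On the remaining 15 scaffolds the share was 5.27%, so the direction rested on these 2 scaffolds. By position along the scaffold, the share ranged from 5.86% to 6.84% over 5 equal parts of the span, and it was 4.99% for long testis peaks within 20 kb of a scaffold end, against 6.41% for the rest.

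**Figure D5:**
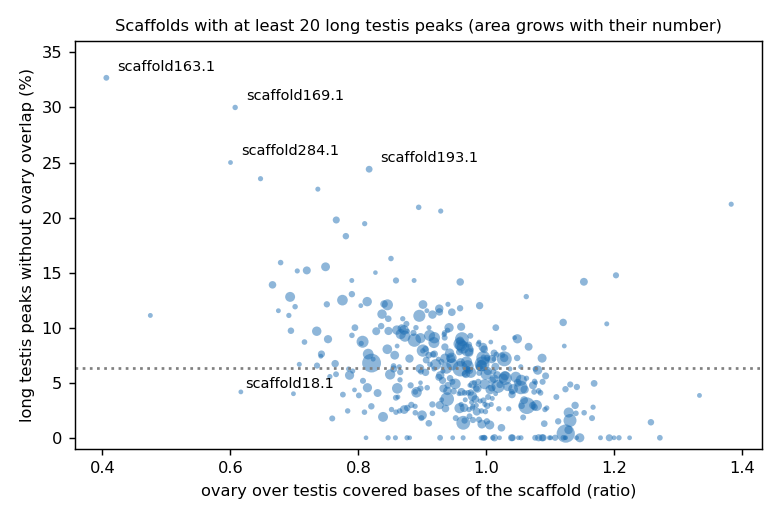
Share of long testis peaks without ovary overlap (%, vertical axis) against the ratio of ovary to testis covered bases (horizontal axis) for the 376 scaffolds with at least 20 long testis peaks, where the area of a point grows with the number of these peaks. The dotted line is the share over all these scaffolds, and scaffold163.1 stands at the upper left with 32.7%.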

How the data were processed

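Chromatin of adult testis and ovary was cross-linked, digested and sonicated, precipitated with an antibody to H2bK120ub, and sequenced, with 1 sample per tissue. Reads were mapped by the authors to a reference genome, and peaks were called. The submitters' processing notes name MACS 1.4.2. The aligner is not given in the sources used here, nor are the threshold, the use of the IgG control and the genome build. The authors deposited 1 peak list per sample, with scaffold, start, end and a score of unstated meaning.

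Overlaps, distances and covered shares were computed with Python 3.11.15, numpy 2.4.6, pandas 2.3.3 and scipy 1.17.1, and figures with matplotlib 3.10.9. Positions are counted from 1. Scaffolds were taken to end at the last peak of either list, and flanks were cut there, which shortened those of 24 unmatched and 484 matched peaks. Matched peaks were weighted to the shares of unmatched peaks in length classes beginning at 1000, 1250, 1500, 2000 and 3000 bp. The functions were tested on simulated lists against counts base by base. No test was run, as there was 1 sample per tissue. The peaks, rules and named regions were chosen with earlier results of these data known. Named regions were the 10 longest peaks, the highest and lowest scores, the 3 scaffolds with most unmatched peaks and the 3 with the highest shares, and the 3 ovary-free stretches with most of them. Runs, blocks, scaffold193.1 with its share, and the unmatched peak farthest from ovary peaks were chosen after their values had been seen. Genes and sequences are not reported, because no genome of the build was used here. Alternatives are given in the closing section.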

Additional observations from a re-analysis of the deposited data

Results flagged for a closer look

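Peaks on scaffolds that had none in the other list were left out of the comparisons. In testis, 491 peaks of at least 1000 bp lay on 974 scaffolds without an ovary peak, and in ovary, 252 peaks of that length lay on 624 scaffolds without a testis peak. Both numbers stand out because the other list had no peak of any length there. The longest of these scaffolds spanned 610902 bp in testis and 505060 bp in ovary up to the last peak. Whether whole scaffolds are missing from a list was not tested.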

How the results depend on the processing

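No paired analysis was possible because each tissue had a single sample. The lower ovary share in the flanks of unmatched peaks and their clustering kept their direction under each setting run for them. Each setting again chose unmatched peaks by their lack of ovary peaks. The direction was thus largely fixed by the choice, and its stability is not an independent check. The numbers depended on the rule, and where the construction of a setting does not show why, the cause was not tested.

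Of long testis peaks, 2732 (6.36%) were unmatched. With a minimum length of 500 bp there were 16045 (15.7%) and with 2000 bp 181 (1.73%). When an ovary peak counted only if it covered 10% of the testis peak there were 4436 (10.3%), and with 50% there were 21503 (50.1%). When an ovary peak within 500 bp counted as overlap there were 1495 (3.48%). Ovary peaks of at least 300 bp alone left 6166 unmatched (14.4%), and using the upper 50% of each list by score left 7993 of 18753 (42.6%). The share was 7.01% with lists cut to an equal number of peaks by score, 7.42% on all scaffolds and 6.05% without the 17 scaffolds with shares over 15%, a setting chosen after seeing the data. Joining peaks nearer than 261 bp changed nothing, since such a gap holds no long peak.

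The next long testis peak was unmatched for 19.5% of unmatched peaks. This became 32.4% at 500 bp, 7.06% at 2000 bp, 25.5% with the 10% rule, 30.4% on all scaffolds and 17.9% without the 17 scaffolds. The values after matched peaks were 12.6%, 1.63%, 8.62%, 5.49% and 5.30%. Another unmatched peak within 10 kb was found for 25.2%, which became 55.0%, 1.10%, 31.7%, 33.8% and 23.3% in the same order, against 38.3%, 0.593%, 14.5%, 9.29% and 9.06% of matched peaks. It was 16.4% within 5000 bp and 37.1% within 20000 bp. At 2000 bp it rests on 2 of 181 peaks. On all scaffolds, the 491 added long testis peaks lay on scaffolds without an ovary peak. They and their neighbors were thus unmatched by rule, which raises both shares.

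The ovary share of the 5 kb flanks differed by -14.6 percentage points between unmatched and matched peaks and the testis share by -4.22. With flanks of 1000, 2000, 10000 and 20000 bp the ovary difference was -21.8, -17.7, -13.7 and -12.3, and the testis difference -3.62, -4.19, -4.93 and -4.85. They were -13.4 and -4.54 without the first 500 bp, -13.9 and -3.31 without weights, -9.97 and -2.65 with the upper 50% by score, -14.1 and -1.49 at 2000 bp, and -14.1 and -4.23 without the 17 scaffolds. The unknown depth limits each of these values.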
